A study of Mus musculus with 12 samples.

Results

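RNA-seq of C2C12 GFP cells on Collagen I was compared with that of the same cells on fibronectin, across every gene with enough counts to be tested. The libraries compared were the 3 Collagen I and 3 fibronectin samples, 6 of the 12 in the series, and 14499 of the 55536 genes in the count table were tested. C2C12 is an established line of mouse skeletal myoblasts, here carrying green fluorescent protein. In all groups, including the uncoated control and the Geltrex group (a basement membrane gel), the line was shifted to a low-serum medium in which myoblasts fuse into myotubes. Collagen I was laid down in dilute hydrochloric acid and fibronectin in serum-free medium before rinsing and seeding, so the coat protein and its vehicle cannot be told apart. The day at which RNA was taken and the library kit are not given in the sources used here. Nothing in them says that the 3 samples of a group came from separate cultures, and p-values then measure only the spread between these samples, which may be technical. Each culture was read as a whole, so fewer cells of a type and less RNA per cell cannot be told apart.

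Myoblasts divide while growth factors are plentiful, then leave the cell cycle, switch on myogenin, fuse, and assemble sarcomeres, the repeating units of contraction. Cells grip a coat through integrins and other receptors. Collagen I is bound by several integrins that contain the beta chain *Itgb1* and by discoidin domain receptors, whereas fibronectin is bound by *Itga5* with *Itgb1* and by the integrins built on *Itgav*. Fibronectin is abundant in the matrix of embryonic and injured muscle, and Collagen I is a main protein of the connective tissue around muscle fibers.

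Counts on genes summed to between 22598438 and 27351766 in the 6 libraries. The first principal component of log2 CPM (counts scaled to a common library size by TMM) held 65.2% of the variance and separated the coats. The second held 12.9% and set Collagen I sample 3, at -25.9, apart from the other Collagen I samples at 13.9 and 20.5, and fibronectin sample 3, at -17.6, apart from the other fibronectin samples at 1.43 and 7.84. Collagen I sample 3 had 11.5% of its counts on genes of the mitochondrial genome, against 4.56% to 6.90% in the other 5 libraries. Defining markers of skeletal muscle were abundant on both coats. Summed over the 9 markers, their level was 7588 to 8236 CPM on Collagen I and 2487 to 2776 CPM on fibronectin. *Myf6* was the only marker of that list too low to test, at no more than 11 counts in any library. Among 6 markers of undifferentiated myoblasts, *Mki67* and *Ccnd1* were called lower on Collagen I, and *Pax7*, *Myf5*, *Id1*, and *Id3* were not called.

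The coats differed widely. Of the genes tested, 6523 (45.0%) differed at an adjusted p of at most 0.05, the threshold meant by "called" in what follows. On Collagen I, 3204 (22.1%) were higher and 3319 (22.9%) lower. The counts called in each gene list below are to be read beside these shares. DEGs, called genes with at least a 2-fold change, numbered 1226 (8.46%), of which 704 (4.86%) were higher and 522 (3.60%) lower on Collagen I. The other 5297 called genes differed by less than that. In the fit to the 6 libraries alone 5426 of 13912 genes were called, and without the Geltrex libraries 5642 of 14231. The median log2 fold change over all genes tested, Collagen I over fibronectin, was 0.022. The Collagen I and fibronectin samples did not overlap for 7456 genes (51.4%), so a gap between the groups is by itself common here. Among protein-coding DEGs of at least 10 CPM on average whose samples did not overlap, the 10 highest were *Actc1*, *Myl2*, *Mybpc1*, *Tnnt1*, *Ckm*, *Asb2*, *Smpx*, *Fabp3*, *Trim63*, and *Actn2*, nearly all genes of striated muscle. The 10 lowest were *Bcat1*, *Knl1*, *Kntc1*, *Clspn*, *Kif11*, *Aldh1l2*, *Depdc1a*, *Aspm*, *Kif4*, and *Hmmr*, of which all but *Bcat1* and *Aldh1l2* act in cell division or DNA replication.

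**Figure D1:**
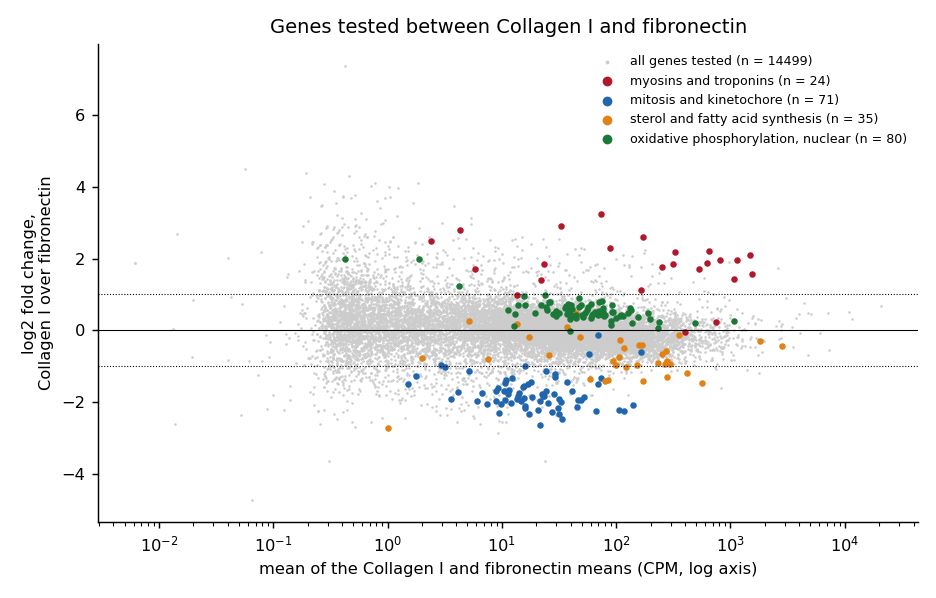
Each of the 14499 genes tested is plotted by the mean of its Collagen I and fibronectin means (CPM, log axis) and its log2 fold change, Collagen I over fibronectin, with dotted lines at a 2-fold change. The myosin and troponin genes (red) lie mostly above the upper line, the mitosis genes (blue) mostly below the lower line, the sterol and fatty acid synthesis genes (orange) mostly below 0, and the nuclear genes of oxidative phosphorylation (green) mostly just above 0.

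Genes of mitosis and the kinetochore, the chromosome structure to which the spindle attaches, were lower on Collagen I almost without exception. Of 71 tested, 70 were called lower and none higher, and 66 were DEGs, with a median log2 fold change of -1.82. Their summed level was 967, 983, and 1023 CPM in the Collagen I samples and 2734, 3594, and 2899.6 CPM in the fibronectin samples, a ratio of 3.10 between the fibronectin and Collagen I means. The uncoated control samples lay at 1067 to 1284 CPM, close to those on Collagen I. *Bub3*, a spindle checkpoint protein, was the only member not called (log2 fold change -0.13, SE 0.069, adjusted p = 0.152). With any 1 library left out, the number called lower was again 70.

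*Kif11* (ENSMUSG00000012443, chromosome 19, 37376403 to 37421859 of GRCm38) encodes the motor that pushes spindle poles apart. It stood at 9.75, 11.6, and 9.66 CPM in the Collagen I samples and 53.7, 68.1, and 49.4 CPM in the fibronectin samples (log2 fold change -2.46, SE 0.15, adjusted p = 1.2e-08). Every fibronectin sample was thus several times above every Collagen I sample, and the control samples, at 12.3 to 19.2 CPM, were nearer to the latter. *Knl1*, the kinetochore scaffold that recruits checkpoint proteins, stood at 6.41, 6.32, and 5.18 CPM on Collagen I and 32.7, 46.5, and 32.6 CPM on fibronectin (log2 fold change -2.64, SE 0.15, adjusted p = 4.51e-09). *Mki67* (ENSMUSG00000031004, chromosome 7, 135689784 to 135716361), the gene of the proliferation antigen Ki-67, was at 41.7, 39.7, and 41.0 CPM on Collagen I and at 159, 254, and 168 CPM on fibronectin (log2 fold change -2.25, SE 0.16, adjusted p = 5.07e-08). Fibronectin sample 2 was the highest library for all 3 genes, and the groups did not overlap. *Aspm*, a spindle pole protein, and *Kif4*, a chromosome motor, both had a log2 fold change of -2.34.

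Promoters of the mitosis list held some short motifs more often than those of all genes tested. The cell cycle homology region (CHR, TTTGAA) is bound by complexes that hold mitotic genes off in resting cells. The CCAAT box, bound by the factor NF-Y, was searched as well. In the 250 bases before each RefSeq gene start, CHR was found on either strand in 37.3% of the 67 promoters of the mitosis list and in 10.8% of the 13184 promoters of all genes tested, and CCAAT in 68.7% and 35.6%. Both together were found in 31.3% and 4.07%. Over all DEGs the contrast was smaller, with CHR in 16.9% of the promoters of those lower on Collagen I and 12.1% of those higher. The searches are a description of letters, not of bound sites. The 2 members with the largest differences whose promoters hold CHR, outside a chromosome left out of the choice, are shown from RefSeq (GRCm38.p6). They run 5′ to 3′ toward the gene, with CHR or its complement in capitals. It begins at position -19 from the start in *Kif11* (chr19:37376132-37376381, plus strand) and at -116 and -98 in *Mki67* (chr7:135716380-135716629, minus strand).
Kif11: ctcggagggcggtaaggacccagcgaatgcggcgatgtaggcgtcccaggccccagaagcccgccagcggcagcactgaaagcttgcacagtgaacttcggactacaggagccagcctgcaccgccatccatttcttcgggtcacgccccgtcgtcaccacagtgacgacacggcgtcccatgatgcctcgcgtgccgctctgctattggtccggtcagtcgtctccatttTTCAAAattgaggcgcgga
Mki67: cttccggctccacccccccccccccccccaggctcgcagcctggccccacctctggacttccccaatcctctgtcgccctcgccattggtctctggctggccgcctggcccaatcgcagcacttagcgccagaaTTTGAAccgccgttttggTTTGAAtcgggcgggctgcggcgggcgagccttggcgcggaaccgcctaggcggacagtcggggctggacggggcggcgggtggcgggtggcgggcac

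DNA replication genes were lower as well, by less. Of 55 tested, 42 were called lower and 1 higher, with a median log2 fold change of -0.90 and 21 DEGs. Summed levels were 1021, 1009.5, and 1009 CPM on Collagen I, 1566, 1803, and 1749 CPM on fibronectin, and 1109.7 to 1211 CPM in the control. *Cdc6*, which loads the replicative helicase, was at 0.563, 1.30, and 1.34 CPM on Collagen I and 5.09, 6.36, and 5.28 CPM on fibronectin (log2 fold change -2.37, SE 0.27, adjusted p = 6.32e-06). *Mcm5*, a subunit of that helicase, was at 6.15, 4.87, and 6.60 CPM on Collagen I and 19.7, 23.2, and 27.3 CPM on fibronectin (log2 fold change -2.00, SE 0.15, adjusted p = 5.37e-08). The groups lay well apart for both genes, with the control at 1.19 to 2.46 CPM for *Cdc6* and 7.68 to 9.38 CPM for *Mcm5*. The checkpoint adaptor *Clspn* and the initiation factor *Mcm10* had log2 fold changes of -2.55 and -2.18. Among genes of homologous recombination and the Fanconi pathway, 26 of 38 were called lower and 2 higher (median -0.66), led by the helicase *Brip1* (-2.60), the nuclease *Exo1* (-2.37), and *Brca1* (-2.10).

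E2F factors switch on many replication genes. An E2F core, searched on either strand as TTCCCGC, or in its other common forms as TTGGCGC and then also as TTCGCGC, was found in 36.4% of the 55 promoters of the replication list and in 11.6% of those of all genes tested. A CCAAT box that lies on the opposite strand can share bases with the core TTGGCGC. The promoters of the 2 members with the largest differences that hold a core follow, with the core in capitals. It begins at -138 in *Cdc6* (chr11:98907901-98908150, plus strand) and at -164, -152, and -149 in *Mcm5*, the last 2 sharing bases, (chr8:75109259-75109508, plus strand).
Cdc6: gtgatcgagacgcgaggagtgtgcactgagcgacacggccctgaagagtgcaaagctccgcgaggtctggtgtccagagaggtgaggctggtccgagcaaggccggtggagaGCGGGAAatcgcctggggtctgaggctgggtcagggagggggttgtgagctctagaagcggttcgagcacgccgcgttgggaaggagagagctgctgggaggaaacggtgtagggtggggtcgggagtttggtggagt
Mcm5: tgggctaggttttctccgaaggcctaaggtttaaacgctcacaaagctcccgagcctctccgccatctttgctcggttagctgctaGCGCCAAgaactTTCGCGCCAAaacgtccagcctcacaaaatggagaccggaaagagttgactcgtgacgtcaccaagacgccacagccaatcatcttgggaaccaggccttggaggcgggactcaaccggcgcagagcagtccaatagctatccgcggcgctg

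Among E2F and DREAM regulators, 9 of 17 were called lower and 2 higher (median -0.36; 1 to 2 higher with 1 library left out). The repressor *E2f7* (-2.87), the mitotic activators *Mybl2* (-2.25) and *Foxm1* (-1.83), and the DREAM subunit *Lin54* (-0.90) led the list. Of 13 G1 cyclins and kinases, 8 were called lower and 2 higher, with a median of -0.98. Cyclin D1, *Ccnd1*, stood at 15.3, 14.8, and 17.6 CPM on Collagen I, 42.5, 46.7, and 41.8 CPM on fibronectin (log2 fold change -1.46, SE 0.10, adjusted p = 2.71e-08), and 14.1 to 17.6 CPM in the control. *Ccnd2* differed by -1.17 and *Ccne1* by -1.03 on the log2 scale.

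*Cdkn1a* (ENSMUSG00000023067, chromosome 17, 29090976 to 29100727), the CDK inhibitor that myoblasts raise as they leave the cycle, went the other way. It was at 948, 832, and 1021 CPM on Collagen I and 479.5, 448, and 450.4 CPM on fibronectin (log2 fold change 1.02, SE 0.089, adjusted p = 3.76e-07), with the control at 944 to 1093 CPM. All Collagen I samples were above all fibronectin samples. Of 8 CDK inhibitors and pocket proteins tested, *Cdkn1a* was the only 1 called higher, and 2 were called lower (median -0.0755). The pocket protein *Rbl1*, which rises in cycling cells, was lower (-1.08), and *Rb1* was not called (log2 fold change 0.21, SE 0.13, adjusted p = 0.208), although it was without Collagen I sample 3. The few replication-dependent histone genes that could be tested, 10 of 57, did not follow the cycle genes. Of these, 4 were called higher on Collagen I and none lower, and without fibronectin sample 1 the number higher was 2. *Hist1h1c* was at 93.1, 82.3, and 91.5 CPM on Collagen I and 64.8, 54.8, and 60.1 CPM on fibronectin (log2 fold change 0.57, SE 0.087, adjusted p = 0.000108). Most histone messages of dividing cells lack the poly(A) tail that many library kits select for.

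Of 14 myogenic factors tested, 4 were called higher and 4 lower, with a median of -0.072. *Myog* (ENSMUSG00000026459, chromosome 1, 134289989 to 134292548), myogenin, the factor that drives terminal differentiation, was at 289.7, 276, and 289 CPM on Collagen I and 74.0, 49.9, and 66.9 CPM on fibronectin (log2 fold change 2.16, SE 0.13, adjusted p = 7.49e-09). The control samples, at 228 to 303 CPM, overlapped those on Collagen I, and the fibronectin samples lay far below both. *Mef2c*, a partner of myogenin at muscle promoters, was higher by 1.24 and *Smyd1*, a methyltransferase needed for sarcomere assembly, by 1.36 on the log2 scale. The determination factor *Myod1* was at 120.2, 110.5, and 139.9 CPM on Collagen I and 112, 114, and 106 CPM on fibronectin, groups that overlapped (log2 fold change 0.16, SE 0.087, adjusted p = 0.148). *Myf5*, the other determination factor, also missed the threshold (log2 fold change -0.15, SE 0.10, adjusted p = 0.22). *Eya4*, a cofactor of homeodomain factors, was lower (log2 fold change -1.17, SE 0.11, adjusted p = 9.08e-07).

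Myoblast fusion needs 2 muscle-specific membrane proteins, and both were higher on Collagen I. *Mymk*, myomaker, was at 344, 305, and 313 CPM on Collagen I, 102, 76.4, and 89.9 CPM on fibronectin (log2 fold change 1.84, SE 0.12, adjusted p = 2.39e-08), and 303 to 422 CPM in the control. *Mymx*, myomixer, was at 16.7, 14.2, and 19.8 CPM on Collagen I and 6.17, 5.23, and 7.38 CPM on fibronectin (log2 fold change 1.43, SE 0.15, adjusted p = 2.11e-06). Neither gene's groups overlapped. The wider fusion list was mixed, with 5 of 14 called higher and 4 lower (median 0.13). *Cdh2*, N-cadherin, through which myoblasts adhere, was its most abundant member not called (log2 fold change -0.10, SE 0.12, adjusted p = 0.534).

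The contractile genes were higher on Collagen I. Of 24 myosins, actins, tropomyosins, and troponins tested, 23 were called higher on Collagen I, 21 of them DEGs, and none lower, with a median of 1.86. Their sum was 15967, 15406, and 16127 CPM on Collagen I and 5485, 5044, and 4971 CPM on fibronectin, a 3.06-fold ratio of the means, with the control at 14781 to 15779.6 CPM. The Collagen I and control samples overlapped, and every fibronectin sample was far below. *Tpm3*, a tropomyosin also made in non-muscle cells, was the member not called (log2 fold change -0.060, SE 0.094, adjusted p = 0.629). With 1 library left out, 22 to 23 members were called higher.

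*Actc1* (ENSMUSG00000068614, chromosome 2, 114047282 to 114053548), the cardiac actin that developing skeletal muscle also makes, was the protein-coding DEG with the highest log2 fold change among those of at least 10 CPM on average and no overlap. It stood at 160.0, 126, and 115 CPM on Collagen I and 15.2, 14.5, and 12.4 CPM on fibronectin (log2 fold change 3.25, SE 0.14, adjusted p = 5.94e-10), and the control samples, at 83.6 to 106 CPM, were below those on Collagen I. *Acta1*, the adult skeletal actin and a near-identical paralog with which reads could be shared, was at 1870.3, 1723, and 1904 CPM on Collagen I and 519, 402, and 485 CPM on fibronectin (log2 fold change 1.97, SE 0.11, adjusted p = 3.69e-09). Embryonic myosin heavy chain, *Myh3*, was at 2477, 2606, and 2085 CPM on Collagen I, 656, 572, and 434 CPM on fibronectin (log2 fold change 2.11, SE 0.14, adjusted p = 1.82e-08), and 2128 to 2483 CPM in the control. On both coats the embryonic chain was thus abundant, and all 3 genes separated the coats without overlap. The troponin T genes of slow (*Tnnt1*), cardiac (*Tnnt2*), and fast (*Tnnt3*) fibers were higher together, by 2.60, 1.70, and 2.22 on the log2 scale. The light chains *Myl2* (2.92), *Myl1* (1.96), and *Mylpf* (1.56) were higher too. Reads of the developmental and adult myosin heavy chains, which are close paralogs, could likewise be split between genes.

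Genes of the Z-disc, which anchors the thin filaments, and of sarcomere assembly had 32 of 37 members called higher and 1 lower (median 1.38). *Ttn*, the giant spring of the sarcomere, was at 1732, 1526, and 1362 CPM on Collagen I and 377, 427, and 419.7 CPM on fibronectin (log2 fold change 1.92, SE 0.14, adjusted p = 5.37e-08). *Actn2*, the sarcomeric alpha-actinin, and *Mybpc1*, the slow myosin-binding protein C, were higher by 2.34 and 2.61. *Trim63*, a ubiquitin ligase of the sarcomere that is also known from muscle wasting, was higher by 2.42. Excitation-contraction coupling turns a membrane signal into calcium release, and 19 of its 24 genes were called higher and 2 lower (median 1.26), summing to 5918, 5861, and 5144 CPM on Collagen I and 3235, 2857, and 2899 CPM on fibronectin. *Atp2a1*, the fast calcium pump, was at 229, 236, and 202 CPM on Collagen I and 60.6, 43.5, and 54.2 CPM on fibronectin (log2 fold change 2.07, SE 0.13, adjusted p = 1.24e-08). The calcium store protein *Casq1* and triadin, *Trdn*, were higher by 2.19 and 2.29.

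At the endplate, the contact with the motor nerve, 7 of 12 genes were called higher and 1 lower (median 0.44; none lower without Collagen I sample 1 or 3 or fibronectin sample 1 or 2). *Chrng*, the fetal subunit of the acetylcholine receptor, was at 261, 233, and 274 CPM on Collagen I and 88.0, 62.7, and 75.8 CPM on fibronectin (log2 fold change 1.76, SE 0.12, adjusted p = 2.17e-08). *Chrnd*, another subunit, and *Colq*, which anchors acetylcholinesterase, were higher by 0.99 and 1.66, while *Agrn*, the organizer of receptor clusters, was not called (log2 fold change -0.020, SE 0.094, adjusted p = 0.88). In the dystrophin complex, which ties the cytoskeleton to laminin, 6 of 17 were called higher and 2 lower (median 0.12), with *Dmd* (1.60) and *Sgca* (1.10) leading.

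The E-box CAGCTG, to which myogenic factors such as myogenin bind, was found in 35.4% of the 79 promoters of the contractile, Z-disc, and coupling genes and in 12.6% of those of all genes tested. MEF2 sites were found in 6.33% and 0.432%. Over all DEGs, the E-box was found in 21.4% of the promoters of those higher on Collagen I and 14.2% of those lower. The promoters of the 2 members with the largest differences that hold the E-box follow, with it in capitals, at -130 in *Myl2* (chr5:122092939-122093188, plus strand) and -87 in *Mybpc1* (chr10:88605153-88605402, minus strand).
Myl2: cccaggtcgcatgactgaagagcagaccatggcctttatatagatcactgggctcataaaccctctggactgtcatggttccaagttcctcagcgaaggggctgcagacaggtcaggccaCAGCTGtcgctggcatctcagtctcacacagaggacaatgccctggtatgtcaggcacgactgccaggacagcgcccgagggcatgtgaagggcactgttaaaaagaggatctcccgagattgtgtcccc
Mybpc1: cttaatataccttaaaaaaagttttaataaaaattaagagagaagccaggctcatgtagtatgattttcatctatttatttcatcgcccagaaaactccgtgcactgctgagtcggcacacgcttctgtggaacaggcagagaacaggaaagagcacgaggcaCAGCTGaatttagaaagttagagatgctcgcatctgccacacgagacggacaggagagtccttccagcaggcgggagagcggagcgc

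**Figure D2:**
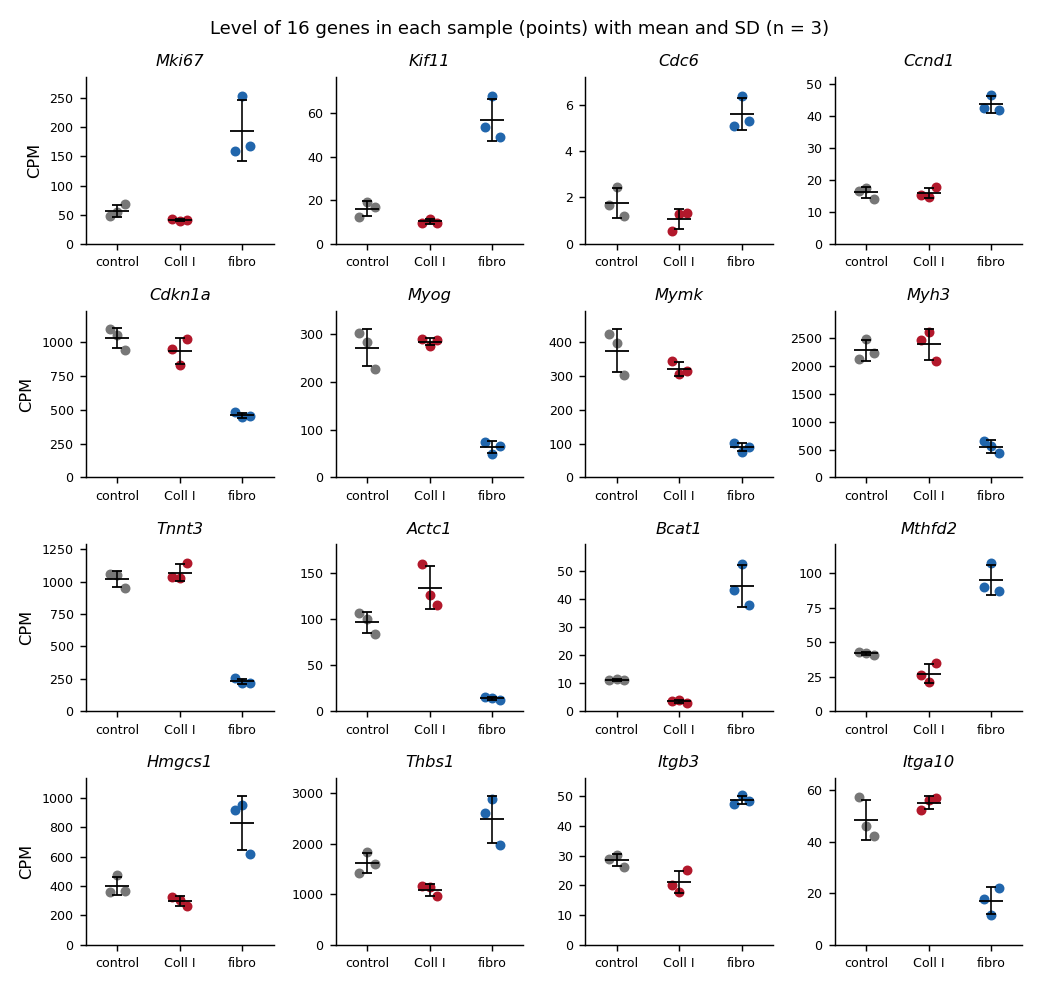
CPM of 16 genes in each control, Collagen I, and fibronectin sample (points), with the mean and SD of 3 samples; each panel has its own axis from 0. For each gene the Collagen I points are separate from the fibronectin points, as at 9.75, 11.6, and 9.66 against 53.7, 68.1, and 49.4 CPM for *Kif11*, and the control mean lies nearer to Collagen I than to fibronectin.

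Among the genes of the coat proteins, *Fn1*, the cells' own fibronectin, was lower on Collagen I, at 6220.0, 5765, and 5611 CPM against 8093, 8573, and 9152 CPM on fibronectin (log2 fold change -0.55, SE 0.10, adjusted p = 0.000361). *Col1a2* was at 878, 802, and 984 CPM on Collagen I and 971, 887, and 1070.3 CPM on fibronectin, groups that overlapped (log2 fold change -0.14, SE 0.089, adjusted p = 0.224). *Col1a1*, whose product pairs with it in collagen I, was at 128, 89.1, and 118 CPM on Collagen I and 91.5, 83.1, and 84.7 CPM on fibronectin, and these also overlapped, although the gene was called (log2 fold change 0.37, SE 0.12, adjusted p = 0.0209). That call was lost without Collagen I sample 1 or 3, without fibronectin sample 2, and with the GC trend removed.

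Of 7 collagen receptors tested, 1 was called higher and 2 lower on Collagen I (median -0.15), and not all are named here. *Itga2* was too low to test. *Itga10* (ENSMUSG00000090210, chromosome 3, 96645584 to 96664519), a collagen-binding integrin chain known from cartilage, was at 52.5, 56.3, and 56.8 CPM on Collagen I and 17.6, 11.5, and 22.0 CPM on fibronectin (log2 fold change 1.69, SE 0.17, adjusted p = 1.37e-06), without overlap, and at 42.1 to 57.2 CPM in the control. Of its exon sequence, 33.5% is shared with *Gm42957* on the same strand, so reads there could belong to either. *Ddr2*, the discoidin receptor for fibrillar collagens, was at 287, 297, and 271 CPM on Collagen I and 487, 539, and 462 CPM on fibronectin (log2 fold change -0.80, SE 0.10, adjusted p = 1.75e-05), and thus lower on its ligand. *Itga11*, the other collagen-binding chain of mesenchymal cells, was at 2.82, 2.01, and 2.46 CPM on Collagen I and 3.01, 2.64, and 2.37 CPM on fibronectin, and was not called (log2 fold change -0.14, SE 0.21, adjusted p = 0.605). *Itgb1*, the beta chain common to most of these receptors, was at 1859, 1928, and 1495 CPM on Collagen I and 2086, 2305, and 1978 CPM on fibronectin (log2 fold change -0.27, SE 0.10, adjusted p = 0.0405), a call that was lost in the fit to the 6 libraries alone and without Collagen I sample 3, fibronectin sample 1, or fibronectin sample 2.

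Of 12 fibronectin receptors tested, 2 were called higher and 5 lower on Collagen I (median -0.21). The median was -0.10 without Collagen I sample 3 and -0.095 with the exon length trend removed. *Plaur*, the urokinase receptor, which associates with integrins, had the lowest log2 fold change, at 1.86, 1.82, and 3.06 CPM on Collagen I and 6.13, 5.65, and 6.49 CPM on fibronectin (log2 fold change -1.44, SE 0.20, adjusted p = 5.05e-05). *Itgb3*, which pairs with *Itgav*, was at 20.2, 17.9, and 25.3 CPM on Collagen I and 47.5, 50.4, and 48.6 CPM on fibronectin (log2 fold change -1.21, SE 0.11, adjusted p = 8.28e-07). *Itgav* itself was at 252, 274, and 176 CPM on Collagen I and 381, 418, and 331 CPM on fibronectin (log2 fold change -0.69, SE 0.15, adjusted p = 0.00161). The syndecan *Sdc4*, a co-receptor at focal adhesions, was at 173, 166, and 173 CPM on Collagen I and 296, 271, and 318 CPM on fibronectin (log2 fold change -0.79, SE 0.085, adjusted p = 3.26e-06). These 4 genes were higher on fibronectin without overlap. *Itga5*, the classical fibronectin receptor chain, was at 129, 120.1, and 119 CPM on Collagen I and 144, 122, and 143 CPM on fibronectin and did not pass the threshold (log2 fold change -0.15, SE 0.083, adjusted p = 0.149). It was called lower only without fibronectin sample 2 or with the GC trend removed. *Itgb6* went the other way (log2 fold change 0.81, SE 0.15, adjusted p = 0.000624), and so did *Itga9*, at 0.823, 0.632, and 0.431 CPM on Collagen I and 0.0371, 0.209, and 0.0388 CPM on fibronectin (log2 fold change 2.71, SE 0.60, adjusted p = 0.00196). All of these *Itga9* values were below 1 CPM and near the floor on fibronectin, so the size of its fold change is uncertain. Requiring 10 counts in every library left 11 receptors tested, without *Itga9*, with 1 called higher and 4 lower.

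Matrix genes other than the coats were more often lower than higher on Collagen I. Among matricellular and elastic fiber genes, 15 of 26 were called lower and 2 higher (median -0.46), and their sum was 12763, 11784, and 11622 CPM on Collagen I, 17069.7, 18563, and 18644 CPM on fibronectin, and 12300.4 to 14098 CPM in the control. *Thbs1*, thrombospondin 1, had the largest fall in CPM among the DEGs, from 2594, 2881, and 1967 CPM on fibronectin to 1163, 1149.7, and 956 CPM on Collagen I (log2 fold change -1.19, SE 0.13, adjusted p = 3.9e-06). Tenascin C, *Tnc*, a glycoprotein of growing and injured tissue, was at 66.9, 55.0, and 49.7 CPM on Collagen I and 192, 207, and 197 CPM on fibronectin (log2 fold change -1.80, SE 0.10, adjusted p = 3.99e-09). These samples did not overlap for either gene. The hyaluronan receptor *Cd44* (-1.60), the collagen crosslinker *Lox* (-1.07), and the metalloproteinase inhibitor *Timp3* (-1.15) were lower too.

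Proteoglycans had 10 of 20 called lower and 4 higher (median -0.43), the number higher being 1 without Collagen I sample 1 and 2 without Collagen I sample 2 or fibronectin sample 2. Proteinases and their inhibitors had 15 of 33 lower and 2 higher (median -0.35). The collagen genes were mixed, with 5 of 27 called higher (3 without Collagen I sample 1) and 9 lower. *Col18a1*, a basement membrane collagen, was at 17.6, 15.3, and 17.9 CPM on Collagen I and 73.2, 72.7, and 70.1 CPM on fibronectin (log2 fold change -2.09, SE 0.15, adjusted p = 4.47e-08). *Col15a1*, its closest relative, went the other way at a low level, 2.21, 1.67, and 1.47 against 0.557, 0.251, and 0.777 CPM (log2 fold change 1.73, SE 0.35, adjusted p = 0.00106). *Col3a1*, the most abundant collagen not called, had a log2 fold change of -0.064. Of 21 genes that process collagens, 7 were called lower, among them *Lox* and its relative *Loxl2* (-0.94), and of 19 laminin and basement membrane genes 2 were called higher (4 without fibronectin sample 3) and 4 lower. With the exon length trend removed, the median was -0.35 for the matricellular list, -0.42 for proteoglycans, and -0.23 for proteinases. It was -0.045 for collagens (-0.14 in the fit reported) and 0.14 for laminins and basement membrane (-0.057). With the GC trend removed, the collagen median was -0.20 and the laminin median -0.16.

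Adhesion plaques join integrins to actin, and the YAP pathway senses cell spreading. Of 29 focal adhesion genes, 15 were called lower and 5 higher (median -0.25; 3 higher without Collagen I sample 1). With the exon length trend removed 12 were called lower (median -0.12), and with the GC trend removed 19 (median -0.39). *Flna*, filamin A, which crosslinks actin and binds integrin tails, was at 954, 877, and 809 CPM on Collagen I and 1891, 1854, and 1969 CPM on fibronectin (log2 fold change -1.11, SE 0.087, adjusted p = 1.08e-07). *Itgb1bp2*, melusin, an integrin partner made in striated muscle, was higher (log2 fold change 1.48, SE 0.11, adjusted p = 4.74e-08). Of 22 targets of YAP and TEAD, 12 were called lower and 3 higher (median -0.36), with *Crim1* (-1.05) and *Ptpn14* (-0.96) among the former. The number lower was 11 with the exon length trend removed (median -0.25) and 14 with the GC trend removed (median -0.46). The YAP target *Ccn1* had the highest log2 fold change of the list and was not called (log2 fold change 0.87, SE 0.36, adjusted p = 0.0611), although it was without Collagen I sample 2 or fibronectin sample 3.

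Sterol and fatty acid synthesis was lower on Collagen I across the pathway. Of 35 genes, 28 were called lower and 1 higher (median -0.76), and their sum was 8005, 7801, and 6767 CPM on Collagen I, 12392, 11976, and 10447 CPM on fibronectin, and 8336 to 9556 CPM in the control. *Hmgcs1*, an early enzyme of the sterol pathway, was at 328, 303, and 265 CPM on Collagen I and 915, 952, and 616 CPM on fibronectin (log2 fold change -1.47, SE 0.14, adjusted p = 1.37e-06). Fibronectin sample 3 was the lowest of its group and still above every Collagen I sample. The isomerase *Idi1* (-1.42), the squalene epoxidase *Sqle* (-1.18), and the sterol sensor *Insig1* (-1.30) were lower as well. *Srebf2*, the factor that drives these genes, was not called (log2 fold change -0.14, SE 0.092, adjusted p = 0.225). CCAAT, whose binding factor NF-Y works with SREBP at sterol genes, was found in 72.4% of the 29 promoters of the list.

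The lowest log2 fold change among protein-coding DEGs of at least 10 CPM on average belonged to an amino acid gene. *Bcat1* (ENSMUSG00000030268, chromosome 6, 144993835 to 145076184), the cytosolic enzyme that removes the amino group of leucine, isoleucine, and valine, was at 3.60, 4.09, and 2.98 CPM on Collagen I and 43.2, 52.7, and 37.9 CPM on fibronectin (log2 fold change -3.64, SE 0.14, adjusted p = 5.74e-10). The control samples, at 11.0 to 11.4 CPM, lay between the coats. *Bcat2*, the mitochondrial enzyme of the same step and the form typical of muscle, was higher, at 24.4, 24.8, and 28.9 CPM on Collagen I and 14.3, 12.4, and 17.6 CPM on fibronectin (log2 fold change 0.82, SE 0.13, adjusted p = 0.000148). Neither gene's groups overlapped. The leucine transporter *Slc7a5* was lower (-1.32). In the whole branched-chain list, 7 of 20 genes were called higher, among them the leucine catabolic enzyme *Ivd* (0.78), and 3 lower (median 0.12).

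Serine synthesis, one-carbon metabolism, and other targets of the stress factor ATF4 had 20 of 29 genes called lower and 0 higher (median -0.65). *Mthfd2*, a mitochondrial folate enzyme of proliferating cells, was at 25.9, 20.9, and 34.8 CPM on Collagen I, 90.1, 108, and 87.4 CPM on fibronectin (log2 fold change -1.81, SE 0.14, adjusted p = 8.19e-08), and 40.5 to 43.0 CPM in the control. Asparagine synthetase, *Asns*, was at 27.7, 23.0, and 30.7 CPM on Collagen I and 87.3, 103, and 91.9 CPM on fibronectin (log2 fold change -1.79, SE 0.11, adjusted p = 7.71e-09). The folate enzyme *Aldh1l2* had a log2 fold change of -2.35. *Atf4* itself, which is known to be controlled largely in translation, was not called (log2 fold change -0.079, SE 0.10, adjusted p = 0.554). Antioxidant targets of NRF2 and metallothioneins, taken as 1 list, had 14 of 22 called lower and 2 higher (1 to 2 with 1 library left out), with a median of -0.41. Those lower included the glutathione enzymes *Gclc* (-1.03) and *Gclm* (-0.90) and heme oxygenase, *Hmox1* (-1.12). The metallothionein *Mt2* had the lowest log2 fold change (-1.25). The summed level of the list overlapped between the coats.

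**Figure D3:**
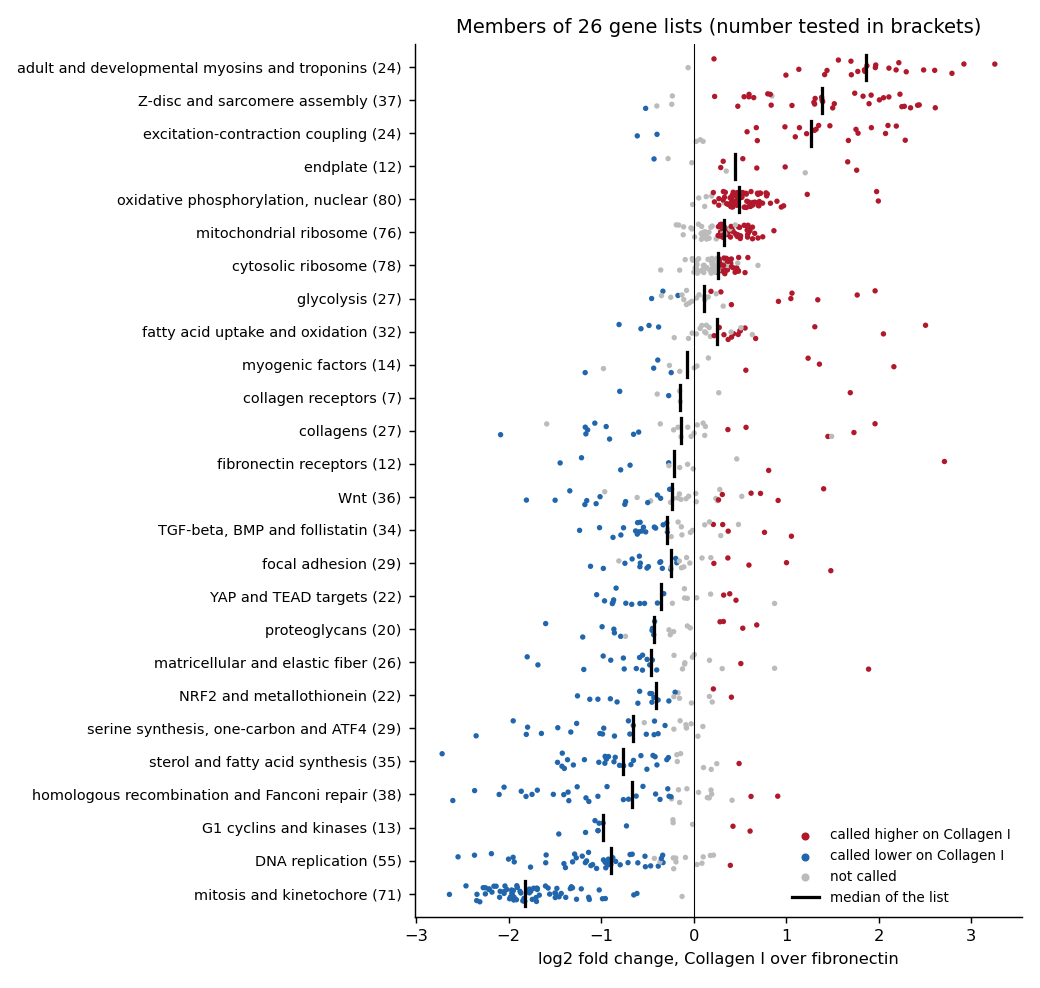
Log2 fold change, Collagen I over fibronectin, of each tested member (points) of 26 gene lists, with the median of each list as a black bar; red and blue points were called at an adjusted p of at most 0.05. The mitosis list lies almost wholly below 0 (median -1.82), the myosin and troponin list almost wholly above 0 (median 1.86), and the lists of oxidative phosphorylation and ribosomes in narrow bands just above 0.

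**Figure D4:**
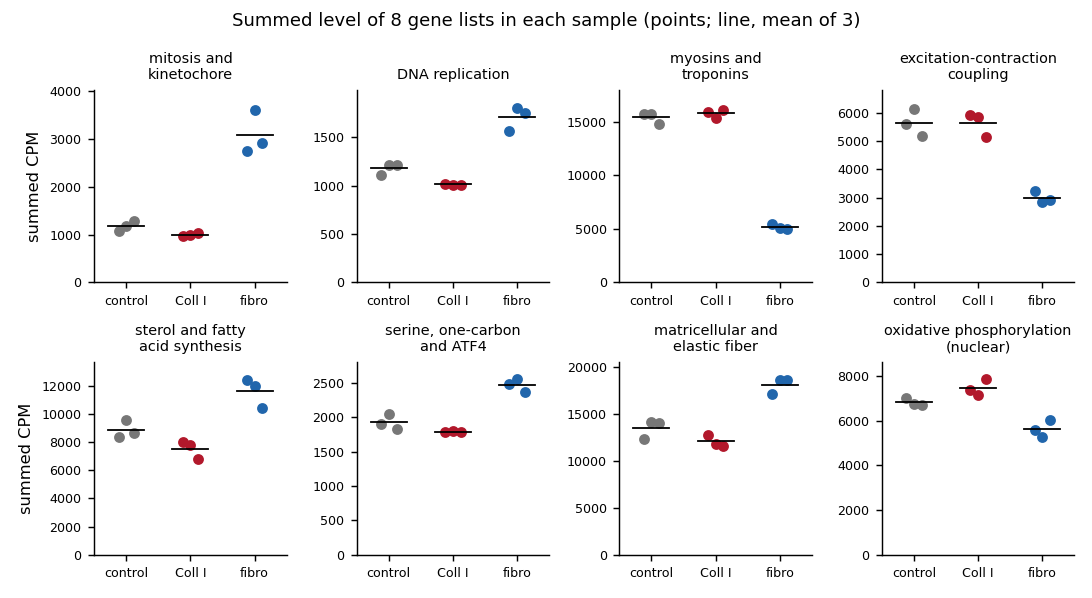
Summed CPM of 8 gene lists in each control, Collagen I, and fibronectin sample (points), with the mean of 3 samples as a line and axes from 0. In all 8 panels the Collagen I and fibronectin samples do not overlap, as with the mitosis genes at 967, 983, and 1023 CPM against 2734, 3594, and 2899.6 CPM.

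Nuclear genes of oxidative phosphorylation had 74 of 80 called higher on Collagen I and 0 lower, with a median of 0.49 and 3 DEGs. Those DEGs were *Cox7a1* (1.99), *Cox8b* (1.98), and *Cox6a2* (1.23), all subunits of cytochrome oxidase typical of striated muscle. The sum of the list was 7386, 7153, and 7864 CPM on Collagen I and 5608, 5258, and 6026 CPM on fibronectin, a 1.33-fold ratio of the means, with the control at 6697 to 7028 CPM. Among the transcripts of the mitochondrial genome itself, 5 of 15 were called higher (median 0.55). Their sum was 67460.5, 62221, and 115293 CPM on Collagen I and 46236, 62167, and 61972 CPM on fibronectin, so that Collagen I sample 3 stood far above the other 5 libraries. The number called was 3 without Collagen I sample 3 (median 0.16), 3 without fibronectin sample 1, 8 without Collagen I sample 1, 11 without Collagen I sample 2, and 8 without control sample 2. It was 11 with the GC trend removed and 15 with no filter on low counts.

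The cytosolic ribosome had 33 of 78 genes called higher and 0 lower (median 0.26), and the number higher was 10 without Collagen I sample 3 (median 0.13), 15 without fibronectin sample 1, and 13 without fibronectin sample 2. It was 16 in the fit to the 6 libraries alone and also without the Geltrex libraries. The mitochondrial ribosome had 47 of 76 called higher and 0 lower (median 0.33). These lists are of short genes, with median exon lengths of 1775.5, 2394, and 1696.5 bases for cytosolic ribosome, mitochondrial ribosome, and oxidative phosphorylation, and the log2 fold change fell with exon length over all genes. Its median was 0.29 over genes with exons of 57 to 2093 bases and -0.22 over those with 7252 to 123179 bases, which are the shortest and the longest of 5 equal groups. With that trend removed, 55 oxidative phosphorylation genes (median 0.34), 29 of the mitochondrial ribosome, and 8 of the cytosolic ribosome were called higher, and 2 mitochondrial and 5 cytosolic ribosome genes were called lower. The mitosis list then had 70 called lower and the contractile list 23 called higher. Log2 fold changes also rose with GC content, from a median of -0.19 in the lowest of 5 equal groups to 0.27 in the highest. With the GC trend removed, 73 oxidative phosphorylation, 43 mitochondrial ribosome, and 30 cytosolic ribosome genes were called higher.

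**Figure D5:**
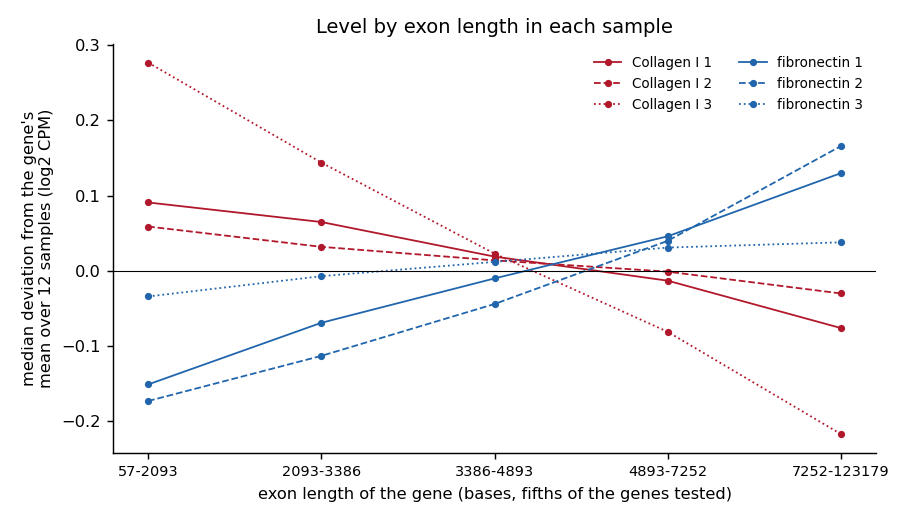
Median deviation of the genes in 5 equal groups by exon length from their mean over all 12 samples (log2 CPM), for each Collagen I and fibronectin sample. The Collagen I lines fall and the fibronectin lines rise with exon length, most steeply in Collagen I sample 3, from 0.28 in the shortest to -0.22 in the longest group. Collagen I sample 2 (0.059 to -0.03) and fibronectin sample 3 (-0.034 to 0.038) are nearly flat. Libraries of the uncoated control, not plotted, also differed, from 0.122 to -0.141 in sample 1, -0.041 to 0.016 in sample 2, and 0.086 to -0.03 in sample 3.

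In glycolysis, 9 of 27 genes were called higher and 3 lower (median 0.11), and several of the former were forms typical of muscle. *Eno3*, the muscle enolase, was at 464, 457, and 524 CPM on Collagen I and 244, 199, and 249 CPM on fibronectin (log2 fold change 1.06, SE 0.11, adjusted p = 1.82e-06), whereas the general form *Eno1*, at 751, 715, and 862 CPM on Collagen I and 832, 773, and 852 CPM on fibronectin, overlapped and was not called (log2 fold change -0.077, SE 0.084, adjusted p = 0.473). The muscle forms of phosphofructokinase, *Pfkm* (1.05), and phosphoglycerate mutase, *Pgam2* (1.96), were higher, as were the lactate dehydrogenase chain *Ldhb* (1.77) and muscle glycogen phosphorylase, *Pygm* (1.87). In fatty acid uptake and oxidation, 14 of 32 were called higher and 4 lower (median 0.25). *Fabp3*, the fatty acid binder of oxidative muscle, was at 22.0, 22.6, and 18.3 CPM on Collagen I and 4.57, 2.68, and 3.77 CPM on fibronectin (log2 fold change 2.50, SE 0.18, adjusted p = 5.04e-08), and the transporter *Cd36* was higher by 2.05. *Acsl3*, an acyl-CoA synthetase, was lower (-0.81). The list's median was above 0 while its summed level was lower on Collagen I, at 2774, 2852, and 2431 CPM against 3082, 3154, and 2874 CPM on fibronectin. Muscle creatine kinase, *Ckm*, which buffers ATP, was at 35.6, 38.2, and 44.2 CPM on Collagen I and 9.40, 5.02, and 5.51 CPM on fibronectin (log2 fold change 2.56, SE 0.18, adjusted p = 4.15e-08). The oxygen carrier myoglobin, *Mb*, was at 93.2, 76.0, and 79.9 CPM on Collagen I and 31.2, 21.1, and 25.5 CPM on fibronectin (log2 fold change 1.68, SE 0.13, adjusted p = 8.05e-08). Both were higher on Collagen I without overlap. Of 27 genes of the TCA cycle and pyruvate entry, 12 were called higher and 3 lower, with the pyruvate dehydrogenase kinases split between *Pdk2*, which was higher (0.86), and *Pdk3* (-0.58) and *Pdk4* (-0.88), which were lower. The coactivator *Ppargc1a*, PGC-1 alpha, was at 4.42, 4.87, and 2.54 CPM on Collagen I and 2.41, 1.76, and 1.51 CPM on fibronectin (log2 fold change 1.06, SE 0.24, adjusted p = 0.00247). In its list of regulators, 3 of 17 were called higher and 5 lower (2 lower without Collagen I sample 3 and 3 without fibronectin sample 2).

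In the TGF-beta and BMP list, 18 of 34 genes were called lower and 5 higher (median -0.29). The ligand *Tgfb2* (-0.87) and the feedback repressor *Skil* (-1.02) were lower, while *Fst*, follistatin, which binds activin and myostatin, was at 112, 99.3, and 92.7 CPM on Collagen I and 50.4, 50.3, and 45.3 CPM on fibronectin (log2 fold change 1.06, SE 0.10, adjusted p = 8.84e-07). The Wnt list had 14 of 36 lower and 6 higher (median -0.23), with the nuclear factor *Lef1* lower (-1.34) and the secreted inhibitor *Wif1* higher (1.40). In the Notch list, 5 of 18 were higher and 5 lower (median -0.18), the receptor *Notch3* was not called (log2 fold change -0.21, SE 0.10, adjusted p = 0.12), although it was without fibronectin sample 2, and the ligand *Dll1* was higher (0.93).

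The hypoxia list had 3 of 25 genes called higher and 6 lower (median -0.10). Over all genes tested, 22.1% were called higher and 22.9% lower. The hypoxia list was thus below the former share and near the latter. In the fit reported, the interferon-stimulated and Id lists described below were under both shares. *Hif1a*, the oxygen-regulated factor itself, was lower (-0.91), and the secreted peptide *Adm* was higher (1.83). *Egln3*, the prolyl hydroxylase that marks HIF for decay, was at 177, 146, and 117 CPM on Collagen I and 72.9, 70.8, and 62.6 CPM on fibronectin (log2 fold change 1.10, SE 0.13, adjusted p = 7.67e-06). Chemokines were among the 11 of 32 NF-kB and chemokine genes called higher (6 lower, median 0.17). The summed level of this list was lower on Collagen I, at 1443, 1407, and 1448.5 CPM against 1508, 1468, and 1670 CPM on fibronectin. *Bcl3* had its lowest log2 fold change (-0.96). *Ccl2* was at 11.5, 13.8, and 11.1 CPM on Collagen I and 6.05, 5.78, and 7.61 CPM on fibronectin (log2 fold change 0.90, SE 0.13, adjusted p = 7.68e-05), and *Ccl7* and *Ccl8* were higher by 0.89 and 1.85. Interferon-stimulated genes had 8 of 42 higher (5 without Collagen I sample 3) and 2 lower (median 0.041). Their summed level was nonetheless lower on Collagen I, at 797, 783, and 753 CPM against 809, 923, and 810 CPM on fibronectin. Among immediate-early genes, 5 of 33 were higher (3 without fibronectin sample 2 and 8 without fibronectin sample 3) and 12 lower, with the phosphatase *Dusp1* higher (log2 fold change 1.37, SE 0.28, adjusted p = 0.00118) and *Jun* not called (log2 fold change 0.13, SE 0.080, adjusted p = 0.183). In the IGF system, 4 of 14 were higher and 3 lower, and the growth factor *Igf1* was at 267, 244, and 252 CPM on Collagen I and 356, 396, and 335 CPM on fibronectin (log2 fold change -0.51, SE 0.11, adjusted p = 0.00127). Of 25 FoxO and atrophy genes, 7 were higher and 4 lower (median 0.12), with the autophagy gene *Map1lc3a* (1.20) next to *Trim63* among the former. Of 12 Id factors and other inhibitors of myogenic factors, 1 was higher and 2 lower (4 lower without Collagen I sample 3 or fibronectin sample 3), and *Id2* was among the latter (log2 fold change -1.18, SE 0.12, adjusted p = 1.48e-06).

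DEGs made up 7.57% of the 12447 protein-coding genes tested, 7.61% of 578 pseudogenes, 14.4% of 1086 long noncoding genes, and 22.0% of 327 loci that the annotation lists as awaiting experimental proof. Of the last group, 61 DEGs were higher and 11 lower on Collagen I. *Malat1*, a nuclear long noncoding RNA, had the largest rise in CPM of all DEGs, with 2822, 2804, and 6323 CPM on Collagen I and 1052, 1114, and 1432 CPM on fibronectin (log2 fold change 1.73, SE 0.31, adjusted p = 0.000447). Collagen I sample 3 was far above the other Collagen I samples, and all of them lay above all fibronectin samples. *H19*, the imprinted RNA of fetal muscle, was at 3875, 3857, and 4188 CPM on Collagen I and 2363, 1856, and 2209 CPM on fibronectin (log2 fold change 0.89, SE 0.094, adjusted p = 2.64e-06). Among less abundant noncoding genes, *Gm38534* was higher, at 6.28, 5.05, and 4.53 CPM on Collagen I against 0.928, 0.795, and 0.272 CPM on fibronectin (log2 fold change 2.98, SE 0.29, adjusted p = 1.19e-06), and *Gm13230* was lower, at 1.86, 1.60, and 1.12 CPM against 5.91, 10.1, and 5.86 CPM (log2 fold change -2.25, SE 0.27, adjusted p = 1.1e-05).

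Defining markers of other cell types were absent or low, apart from several that are not restricted to those types. *Thy1* and *Tcf21* of fibroblasts, *Ibsp* of osteoblasts, *Matn1* of cartilage, and *Adgre1* of macrophages were at 0 counts in all 12 libraries. The osteoblast factor *Runx2* was at 49.9, 52.3, and 56.2 CPM on Collagen I and 79.8, 92.4, and 66.8 CPM on fibronectin (log2 fold change -0.59, SE 0.11, adjusted p = 0.000691), and the cartilage factor *Sox9* was not called (log2 fold change -0.0018, SE 0.085, adjusted p = 0.989). The adipocyte list summed to 10.5 to 13.5 CPM on Collagen I and 15.7 to 18.0 CPM on fibronectin, almost all of it *Pparg*, and the endothelial list to 0.966 to 2.34 and 2.21 to 3.50 CPM. Of 6 fibroblast markers 4 could be tested, and the list, which held the abundant matrix genes *Dcn* and *Col3a1*, overlapped in sum between the coats at 5708 to 6518 and 5307 to 6384 CPM. In the smooth muscle list, *Acta2*, which differentiating myoblasts also make, was higher (log2 fold change 0.36, SE 0.086, adjusted p = 0.00375), while *Myh11* never exceeded 6 counts and *Cnn1* never exceeded 9. *Tubb3*, a neuronal tubulin also made by dividing cells, was lower (log2 fold change -1.47, SE 0.14, adjusted p = 9.26e-07), and the neural list had *Sox10* and *Snap25* at no more than 2 counts. *Cox7a1*, *Atf4*, *Ccn1*, and the markers of cells other than skeletal muscle were chosen for mention after their values were seen.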

How the data were processed

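RNA was sequenced from 12 samples of C2C12 GFP cells in 4 groups of 3, and the 3 Collagen I and 3 fibronectin libraries were compared. The authors deposited 1 table of raw counts per gene for all libraries, not normalized. Their processing notes name FastQC, Trimmomatic, HISAT2, featureCounts, and DESeq2; versions, the genome build, the annotation release, and whether strand was used in counting are not given in the sources used here. All 55536 gene identifiers matched GENCODE M21 (GRCm38), from which names, positions, and exon lengths were taken. Exon sequence of *Mb* (27.6%), *Ccnd1* (23.4%), *Atp2a1* (21.9%), *Timp3* (21.3%), *Dll1* (20.5%), *Fanci* (16.0%), *Bcat2* (15.9%), *Ckm* (15.5%), and *Kif4* (15.1%) overlaps a gene on the opposite strand, so their reads cannot be told apart if strand was not used.

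Counts were filtered with filterByExpr (minimum count 10, minimum total 15), scaled by TMM, and fitted to all 12 libraries with edgeR 4.0.16 in R 4.3.3, so that the 4 groups share 1 estimate of the spread. The median SD of log2 CPM within a group was 0.163 for Collagen I, 0.159 for fibronectin, 0.158 for the control, and 0.08 for Geltrex. The quasi-likelihood test of Collagen I against fibronectin was adjusted by Benjamini-Hochberg over all 14499 genes tested. SE is the size of the log2 fold change divided by the square root of F. Every adjusted p is from this fit. CPM values are on the TMM scale. Gene lists are described by counts of members and medians, without a set test. Motifs were searched in RefSeq promoters of GRCm38.p6, which matched 10311 of the genes tested. For each motif, the promoters shown were chosen with the genes of a chromosome left out. Alternatives were DESeq2 1.42.0, RLE scaling, other filters, fold limits, and samples, a replicate block, and each library left out; removal of trends with exon length or GC content was added after the data were seen. The code was tested on simulated counts. The comparison, gene lists, and rules were chosen with earlier results of these data known. Some genes picked by the rules that follow, among them receptors of the coat proteins, were left out of the text. Named are up to 4 called members of each list with the largest log2 fold changes and at least 1 CPM on average, with the most abundant member not called; the 10 highest and lowest protein-coding DEGs of at least 10 CPM without overlap; the 10 DEGs on each side with the largest differences in CPM; the 5 noncoding DEGs on each side with the largest log2 fold changes; genes of the coat proteins and their receptors; skeletal muscle markers; and genes whose promoters are shown.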

Additional observations from a re-analysis of the deposited data

How the results depend on the processing

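The number of DEGs on Collagen I against fibronectin (1226, 704 higher and 522 lower) was 1215 with DESeq2, 1228 with RLE scaling, 1138 in the fit to the 6 libraries alone, 1181 without the Geltrex libraries, 1483 with no filter on low counts, 1198 with the exon length trend removed, and 1205 with the GC trend removed. Requiring 10 counts in every library left 790, of which 395 were higher, and so moved the share of DEGs that were higher from 57.4% to 50.0%. Without a fold limit 6523 genes (3204 higher, 3319 lower) were called, and at a log2 limit of 2.0 there were 263 (194 higher, 69 lower). With 1 library left out, DEGs ranged from 1058 (without fibronectin sample 2) to 1445 (without fibronectin sample 3), from 602 to 841 higher and from 456 to 604 lower. Samples of the 2 groups with the same number correlated at 0.047, 0.169, and 0.225 in their deviations from the group means, against a mean of -0.073 for different numbers. Each thus correlated best with its own number, which is a hint from the data and not the design, and the numbers were not taken as pairs. With the replicate number as a block there were 1240 DEGs (717 higher, 523 lower) in 12 libraries and 1173 (667 higher, 506 lower) in 6, and the genes of the mitochondrial genome called higher rose from 5 to 11 and 12, respectively. *Agrn*, *Eno1*, *Itga5*, *Notch3*, *Rb1*, and *Srebf2*, not called in the fit reported, were called with the GC trend removed, and *Notch3* and *Rb1* also with the block in 6 libraries. Counts of 1 or 2 called members in a list changed by 1 or more in many of these fits. Calls of low genes are limited by depth, and 3 samples a group limit all of them.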
